A study of Mus musculus with 23 samples.

Results

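The genes for heterochromatin protein 1 (HP1) and for enzymes that methylate histone H3 at lysine 9 are described here: Cbx1, Cbx3, Cbx5, Suv39h1, Suv39h2, Ehmt1, Ehmt2 and Setdb2. These 8 genes were given by name out of 21887 protein-coding genes. All peaks that shared at least 1 bp with a gene's RefSeq span, or with the 10 kb on either side of it, were taken from 4 merged peak lists. Of 29404 peaks in the lists, 11 met this rule.

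The study profiled CD4 naive T cells of spleen and lymph nodes (labelled pLN) from wild-type (WT) mice and from DDX55 knockout (DDX55 KO) mice. DDX55 belongs to the DEAD-box family of RNA helicases. The method, CUT&Tag, uses an antibody to bring a transposase to its target, so that nearby DNA is cut and tagged. Of 23 samples, 4 were profiled for H3K9me3, 4 for RNA polymerase II and 4 for DDX55, each as 2 WT and 2 knockout samples with no treatment named. Another 8, 4 per genotype, were profiled for R-loops (RNA paired with 1 DNA strand) by the antibody S9.6, and 4 of these 8 received 20 U of RNase H. The remaining 3 were WT, 2 for an HA tag and 1 for IgG, and were not analysed here. How the knockout was made, and how many mice gave the cells, is not given in the sources used here.

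Each list merges samples of both genotypes, and the R-loop list also merges samples with and without RNase H. The lists hold positions only, so the depth is unknown and no WT against knockout difference and no spread between replicates could be measured. H3K9me3 gave 16738 peaks, RNA polymerase II 10924, R-loops 1499 and DDX55 243. RNA polymerase II peaks touched 7 of 9 CD4 naive T cell marker genes, Cd4, Ccr7 and Tcf7 among them, with Cd3g among those without, and 0 of 9 marker genes of other blood cells such as Cd8a and Lyz2. Cd4 was also touched by 1 peak of each of the other lists, and Itgax, a marker of dendritic cells, by 3 R-loop peaks. Ddx55 itself was touched by 1 RNA polymerase II peak and by no peak of the other lists, which cannot check the labels because the genotypes are merged.

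HP1 proteins read the methyl mark on lysine 9 of histone H3 with a chromodomain and bring further silencing proteins to heterochromatin. SUV39H1 and SUV39H2 write the trimethyl mark, H3K9me3, chiefly at pericentromeric repeats, and HP1 can in turn recruit SUV39H enzymes, which lets the mark spread. EHMT2 (G9a) and EHMT1 (GLP) form a complex that writes the monomethyl and dimethyl marks in gene-rich chromatin, and SETDB2 is a further SET-domain protein linked to the trimethyl mark. The lists show where peaks of polymerase, DDX55, R-loops or the mark itself were called at the genes of this system.

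The 5′ flanks of Cbx5 and of its neighbour Hnrnpa1 are shown first, because the DDX55 peak at Cbx5 lies between the starts of these 2 genes. Cbx5 is transcribed to the left of the chromosome 15 map and Hnrnpa1, which encodes an RNA-binding splicing regulator, to the right. Each line gives the 250 bases before a gene's start, 5′ to 3′ on the strand of that gene, from RefSeq (GRCm38.p6, the coordinates of mm10). Capitals mark bases inside the DDX55 peak. The Cbx5 stretch is chr15:103239853-103240102 on the minus strand and holds 79 such bases. The Hnrnpa1 stretch is chr15:103240147-103240396 on the plus strand and holds 165, and another 44 bases of the peak lie between the stretches.
Cbx5: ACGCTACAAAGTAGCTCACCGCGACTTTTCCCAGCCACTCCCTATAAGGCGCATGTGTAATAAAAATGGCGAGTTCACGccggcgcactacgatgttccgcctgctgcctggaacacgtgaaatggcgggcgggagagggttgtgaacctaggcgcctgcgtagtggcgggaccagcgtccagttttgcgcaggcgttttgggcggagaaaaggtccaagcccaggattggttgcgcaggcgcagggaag
Hnrnpa1: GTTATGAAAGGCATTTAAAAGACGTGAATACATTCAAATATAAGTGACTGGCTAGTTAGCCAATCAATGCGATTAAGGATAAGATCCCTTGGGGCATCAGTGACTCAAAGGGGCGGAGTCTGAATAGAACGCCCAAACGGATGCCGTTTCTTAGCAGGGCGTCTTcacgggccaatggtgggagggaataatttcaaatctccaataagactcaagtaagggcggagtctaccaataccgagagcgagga

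Cbx5, which encodes HP1 alpha (gene 12419, chr15:103191546-103239904), was the member with a DDX55 peak. This peak, chr15:103240024-103240311, was 288 bp wide and lay 120 bp outside the Cbx5 span. It began 172 bp before the Cbx5 start at 103239852 and ended 86 bp before the Hnrnpa1 start at 103240397, so neither RefSeq start was inside it. The annotated span of Hnrnpa1 begins at 103239943, well before the start used here, and all 288 bp of the peak fell within that span. The peak thus lay between the 2 starts, over annotated Hnrnpa1 and outside Cbx5. An interval does not show to which gene the peak belongs. The DDX55 list merges WT and knockout samples, so whether WT cells gave this peak is also unknown.

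The DDX55 peak was nested in an RNA polymerase II peak of 1646 bp, chr15:103239641-103241286. All 288 bp were shared, with 383 bp of polymerase peak on the Cbx5 side and 975 bp on the Hnrnpa1 side. The DDX55 peak thus covered 17.5% of the polymerase peak. On its own list the DDX55 peak was narrow, at width percentile 10.7, where the median was 438 bp. No R-loop peak lay closer to Cbx5 than 289319 bp and no H3K9me3 peak closer than 541580 bp.

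DDX55 peaks near genes were rare in the whole series. A DDX55 peak lay within 10 kb of 0.498% of protein-coding genes (109 of 21887), and DDX55 and RNA polymerase II peaks both lay there for 0.343% (75 genes). Among the members this was 1 of 8 for each, a count fixed in advance since Cbx5 was listed with its DDX55 peak in view. Promoter windows are the 300 bases from 250 before to 50 after a RefSeq start. They were on hand for 17492 protein-coding genes, none of them on chromosome 18. Of these genes 12 (0.0686%) had a DDX55 peak over such a window. Cbx5 and Hnrnpa1 were 2 of those 12, through the same peak.

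A divergent partner is used here for a protein-coding gene, itself with a promoter window, that starts on the other strand within 1000 bp upstream. Genes with such a partner had a DDX55 peak over a promoter window in 0.135% of cases (2 of 1483, which were Cbx5 and Hnrnpa1), against 0.0625% (10 of 16009) of genes without. Both genes were counted through the same peak, which was in view when Cbx5 was listed. The contrast therefore says nothing about divergent promoters in general. Of 215 DDX55 peaks on chromosomes 1 to 19, X and Y, 38 lay whole inside an RNA polymerase II peak. Those that met RNA polymerase II and neither H3K9me3 nor R-loop numbered 31, and 7 of these lay over a promoter window. The peak at Cbx5 and Hnrnpa1 was the 1 among the 7 at a divergent promoter. It was also the only such peak among all 11 DDX55 peaks over a promoter window. For comparison, 531 of 4234 RNA polymerase II peaks over a promoter window lay at a divergent promoter.

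**Figure D1:**
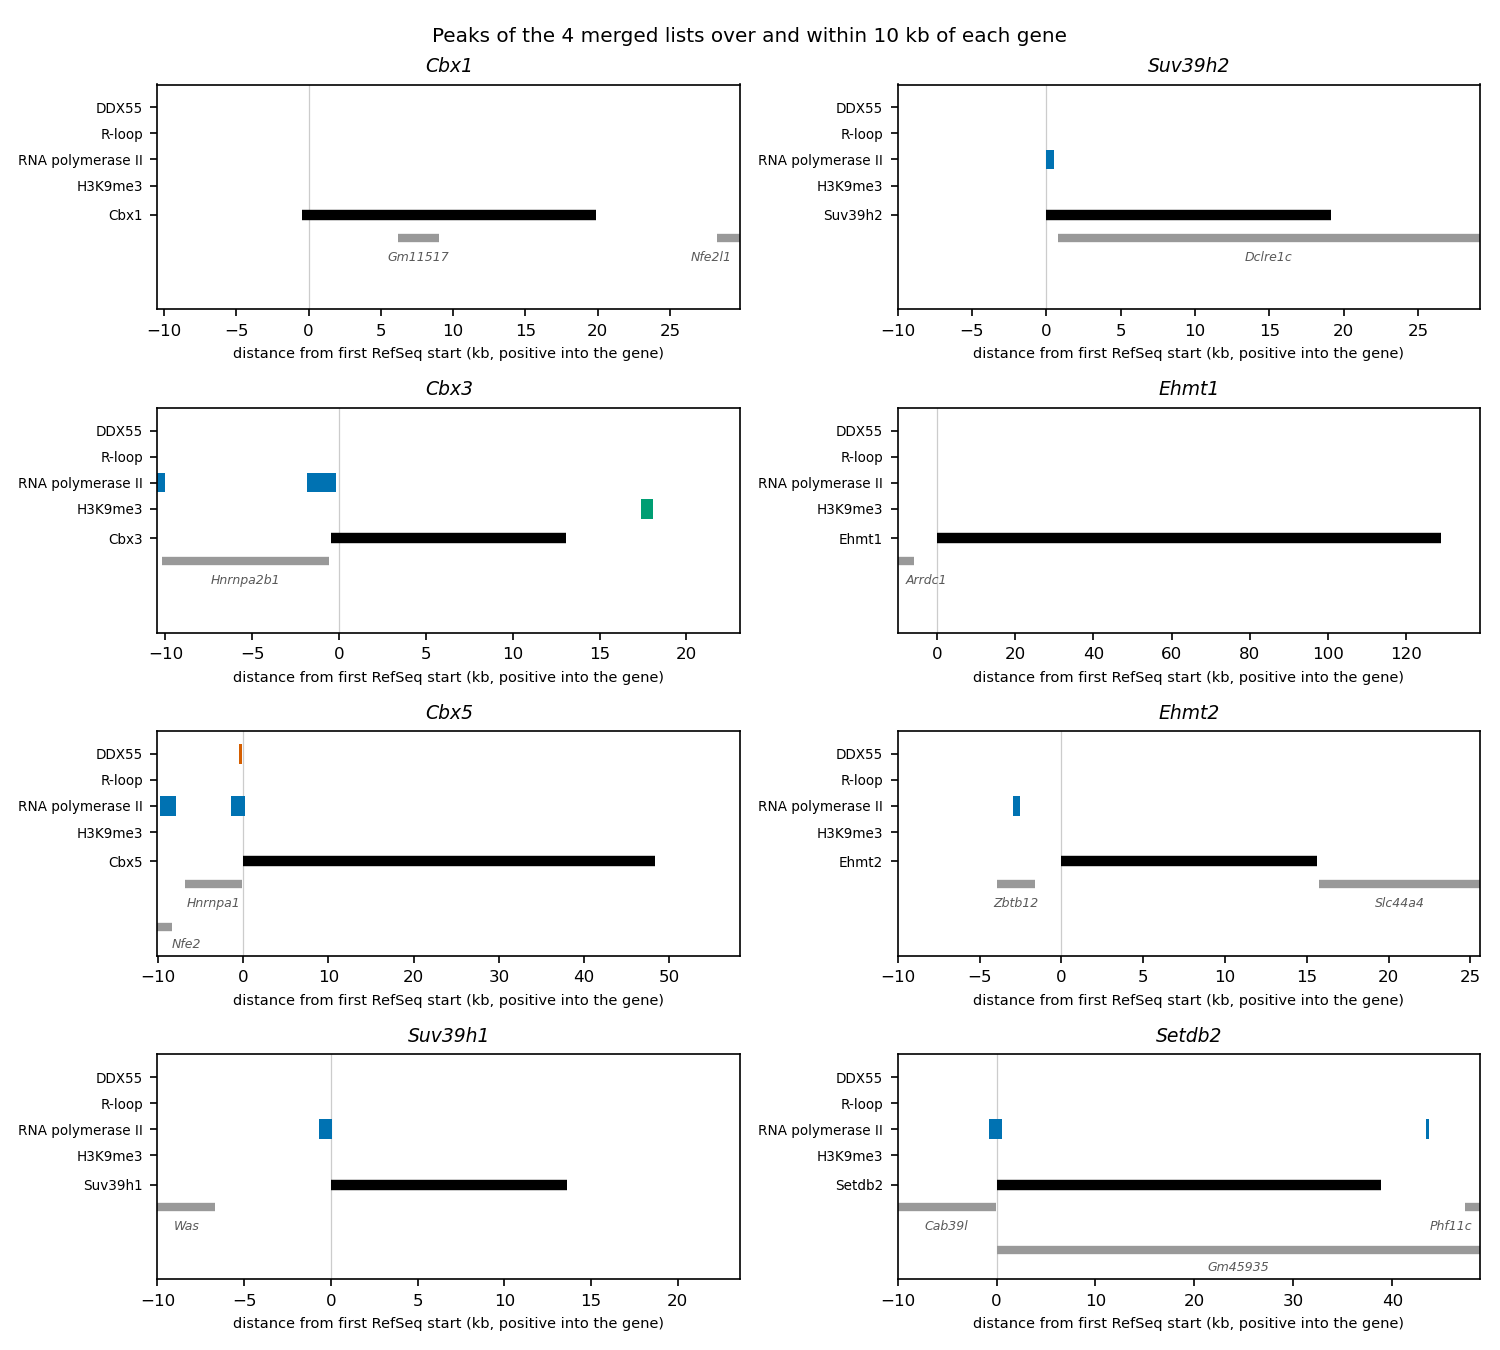
Peaks of the 4 lists (coloured blocks, drawn to scale) along each of the 8 genes (black bars) and their neighbours within 10 kb (grey bars). The x axis gives the distance in kb from the gene's first RefSeq start, positive into the gene. Polymerase blocks of Cbx5, Suv39h1, Suv39h2 and Setdb2 sit over the start and that of Cbx3 ends 199 bp before it. The Cbx1 and Ehmt1 panels hold no block.

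RNA polymerase II was the list with most peaks at these genes, 9 in all, near 6 of the 8 members. The share of all protein-coding genes with RNA polymerase II that close was 41.6% (9114). Only 5 of the 9 peaks touched the member's own span, 1 each at Cbx3, Cbx5, Suv39h1, Suv39h2 and Setdb2. Over all protein-coding genes, 32.2% had a polymerase peak touching the span. The same 5 members had the peak over a promoter window, against 27.0% of all genes with a window (4729). The median was 1 RNA polymerase II peak per member and 0 per protein-coding gene.

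Among the HP1 genes, the polymerase peaks at Cbx3 and Cbx5 were wide and Cbx1 had none. Cbx3 encodes HP1 gamma (gene 12417, chr6:51470154-51483704), and its peak, chr6:51468759-51470417, was 1659 bp wide, at percentile 97.4 of the list. The 1646 bp peak at Cbx5 stood at percentile 97.2. Cbx1 encodes HP1 beta (gene 12412, chr11:96788680-96808982), and the nearest polymerase peak, 733 bp wide, lay 10604 bp outside its span, just beyond the 10 kb limit. The farthest peak still inside the limit was a 1628 bp peak 9563 bp from Cbx3, at the far end of Hnrnpa2b1.

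At the SUV39H genes the polymerase peaks were of ordinary width. Suv39h1 (gene 20937, chrX:8061171-8074760) had a 710 bp peak, chrX:8074717-8075426, at percentile 57.0. Suv39h2 (gene 64707, chr2:3455815-3474986) had a 575 bp peak, chr2:3474454-3475028, at percentile 43.2. The median of the list was 638 bp, which lay between them. The far end of Dclre1c, which encodes the Artemis nuclease, overlaps most of Suv39h2 on the opposite strand, but its span stops at 3474211, short of this peak.

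The genes of the G9a and GLP complex had no polymerase peak of their own. Ehmt1 (gene 77683, chr2:24790769-24919643), the longest member at 128875 bp, had 0 peaks of any list within 10 kb. The nearest, a 1499 bp polymerase peak 14561 bp away, covered the start of the arrestin-domain gene Arrdc1. Ehmt2 (gene 110147, chr17:34898463-34914073) had a 410 bp polymerase peak 2540 bp before its span, at chr17:34895514-34895923. That peak lay whole within the span of the zinc finger gene Zbtb12, 955 bp past the Zbtb12 start and 2551 bp from the Ehmt2 start. Cbx1, Ehmt1 and Ehmt2 were thus the 3 members with no polymerase peak over the gene, where 32.2% of all protein-coding genes had one. This does not show that the 3 lack polymerase, since the depth and the threshold of the calls are unknown.

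Setdb2 (gene 239122, chr14:59402009-59440880) had a polymerase peak of 1333 bp at its start, chr14:59440343-59441675, at percentile 92.5. A second peak of 372 bp, at percentile 15.3, lay 4499 bp past the other end, inside Gm45935, a gene model that spans both Setdb2 and Phf11c. Its nearest RefSeq start was that of Phf11c, 3627 bp away. At Cbx5, the additional peak of 1952 bp, at percentile 98.9, lay 7792 bp from the span and touched Nfe2, which encodes a subunit of the blood transcription factor NF-E2. So 4 of the 9 peaks, 1 each near Cbx3, Cbx5, Ehmt2 and Setdb2, touched a neighbour's span and not the member's.

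The 3 widest peaks touching a member lay at divergent promoters. Cbx3, Cbx5 and Setdb2 each had a divergent partner, and 8.48% of genes with a promoter window (1483 of 17492) did. The starts of Cbx3 and Hnrnpa2b1, another RNA-binding hnRNP gene, were 722 bp apart. The starts of Cbx5 and Hnrnpa1 were 545 bp apart, and those of Setdb2 and Cab39l, which encodes a scaffold protein of the LKB1 kinase complex, 83 bp apart. Some of the starts used here lie inside the annotated gene spans, so the spans were closer. The gap between spans was 106 bp for Cbx3 and Hnrnpa2b1, 39 bp for Cbx5 and Hnrnpa1 and 54 bp for Setdb2 and Cab39l. Suv39h1 and Suv39h2 had no such partner.

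Polymerase peaks at divergent promoters were common and somewhat wider in general. Of genes with a divergent partner 69.7% (1033 of 1483) had an RNA polymerase II peak over a promoter window, against 23.1% (3696 of 16009) of those without. Median width was 902 bp for 531 peaks over divergent promoters, 794 bp for 3703 peaks over other promoters and 542 bp for 6664 peaks over no promoter window. The last class holds every peak on chromosome 18, where no window was on hand, and can hold peaks at other starts without a window. A gene whose partner has no window counted as without one. Among the 531, the Cbx3 peak stood at percentile 96.8, the Cbx5 peak at 96.2 and the Setdb2 peak at 85.9. The peaks of Cbx3 and Cbx5 were therefore wide also for divergent promoters. Among all 4234 promoter peaks, the Suv39h1 and Suv39h2 peaks stood at percentiles 39.0 and 25.3.

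**Figure D2:**
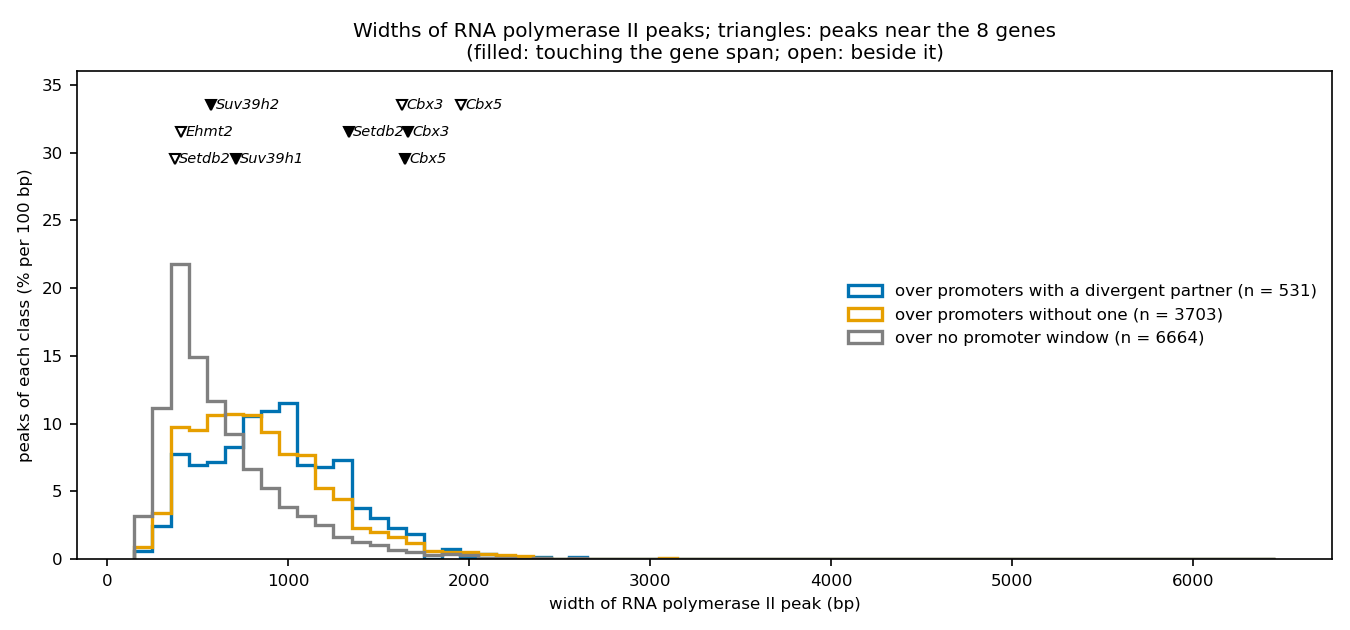
Widths of RNA polymerase II peaks in bp (x axis) as a percentage of each class per 100 bp (y axis). The classes are 531 peaks over divergent promoters, 3703 over other promoters and 6664 over no promoter window. Triangles mark the 9 peaks near the 8 genes (filled where they touch the gene's span, height without meaning), and those touching Cbx3 and Cbx5 lie in the right tail at 1659 and 1646 bp.

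At the HP1 genes with an hnRNP neighbour, more of the polymerase peak lay on the hnRNP side. The peak at Cbx5 reached 211 bp past the Cbx5 start and 889 bp past the Hnrnpa1 start. Its midpoint lay 66 bp past the Hnrnpa1 start used here. The peak at Cbx3 ended 199 bp before the first Cbx3 start used here, though it covered 264 bp of the annotated Cbx3 span. It reached 1135 bp past the Hnrnpa2b1 start used here, and its midpoint lay 306 bp past that start. The Setdb2 peak was more even, with 537 bp past the Setdb2 start and 712 bp past the Cab39l start. A merged interval does not show which strand the polymerase read, so these peaks may belong to either gene or to both.

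The SUV39H peaks lay on opposite sides of their starts. At Suv39h1, 666 of 710 bp (93.8%) lay before the first start and 43 bp after it. At Suv39h2, 42 of 575 bp (7.30%) lay before the start and 532 bp after it. In 2971 genes without a divergent partner whose first start was inside a polymerase peak, the median share before the start was 41.4%, with the central 80% of genes between 7.16% and 71.6%. The Suv39h1 share stood at percentile 98.4 of these genes and the Suv39h2 share at percentile 10.1. Suv39h1 also has a RefSeq start further into the gene, 356 bp beyond the edge of the peak.

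**Figure D3:**
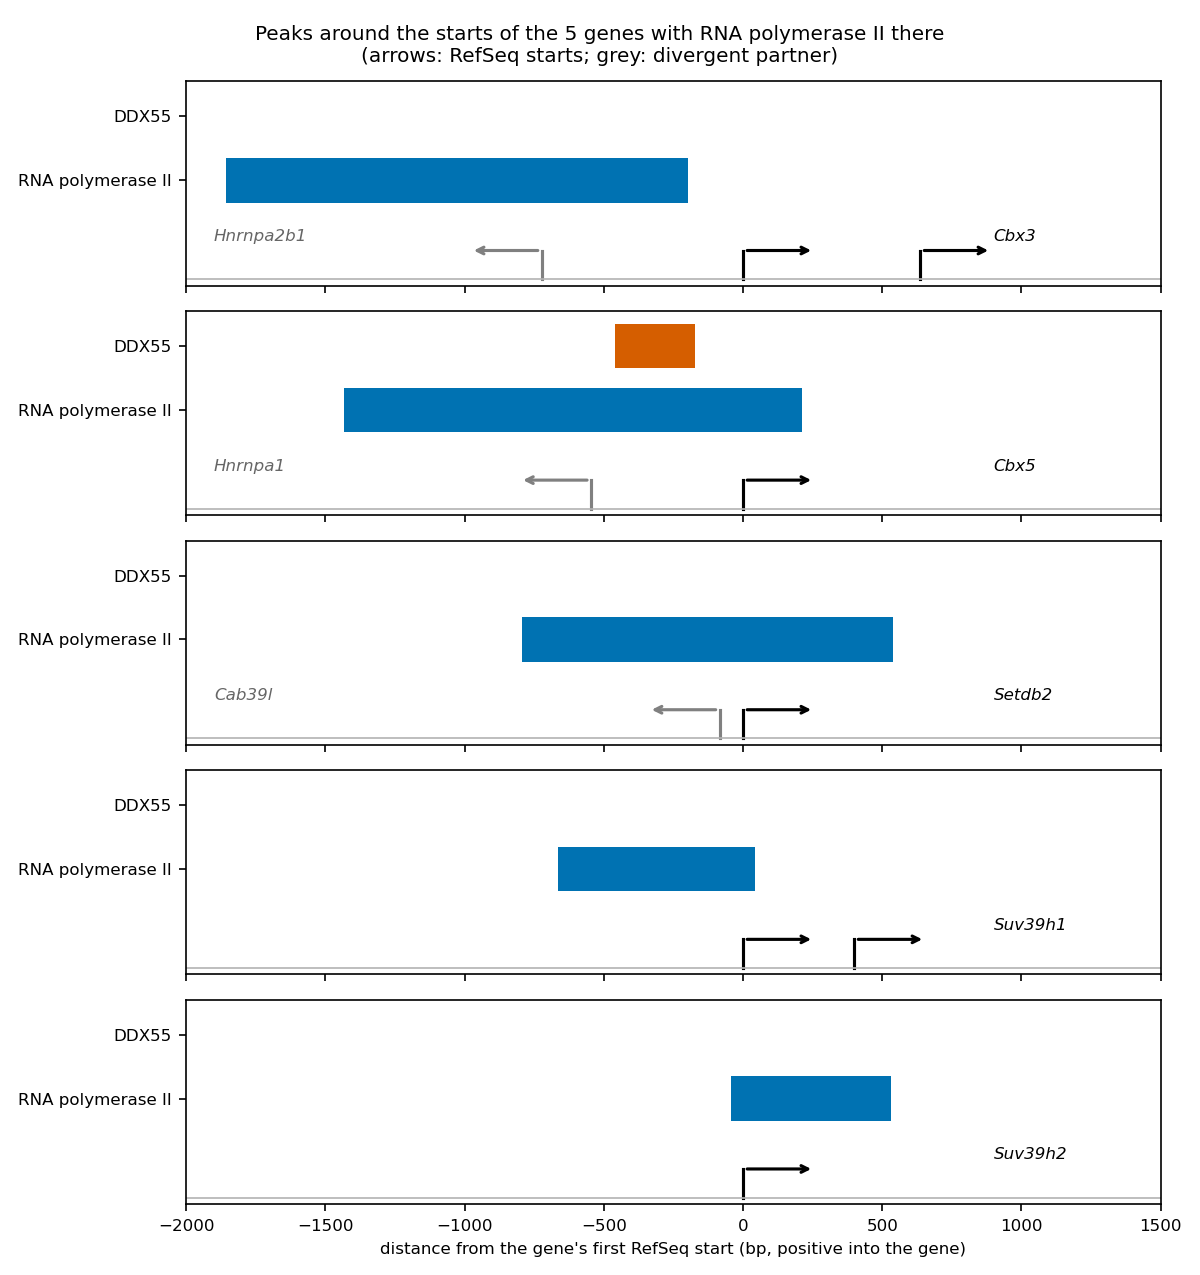
RNA polymerase II (blue) and DDX55 (orange) peaks around the first RefSeq start of the 5 members with a polymerase peak over it or, at Cbx3, just before it. The x axis gives the distance in bp, positive into the gene. Arrows mark RefSeq starts, black for the member and grey for the divergent partner, and the 288 bp DDX55 peak sits between the Cbx5 and Hnrnpa1 starts.

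Sequence at the first start of all 8 members held more CpG, relative to expectation, than that of the median gene. Over each gene's first 300 bp promoter window, the ratio of observed to expected CpG ran from 0.72 at Suv39h1 to 1.09 at Cbx5, where the median of 17492 genes was 0.577. Windows at a second start had ratios of 0.842 (Cbx3), 0.803 (Ehmt2) and 1.09 (Suv39h1), but 0.358 at Cbx5. GC content of the first windows ran from 52.7% at Cbx1 to 75.3% at Cbx3, against a median of 56.3%. Cbx1 and Suv39h1 (53%) lay below that median and the other members above it. Windows under a polymerase peak had a median ratio of 0.835 and other windows 0.383. Cbx1, Ehmt1 and Ehmt2, with no polymerase peak there, had ratios of 1.06, 0.89 and 0.759, of which the first and second lay above the median of windows under a peak and the last between the medians.

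Short motifs were counted on both strands of the first windows, and a base could count for more than 1 motif. The GC box GGGCGG was present in 7 of 8 members, all but Setdb2, and in 46.3% of all genes and 70.5% of those with a polymerase peak over the window. The ETS core CCGGAA was present in Setdb2 alone among the members, against 19.1% of all genes and 36.5% of those with a polymerase peak. The TATA motif TATAAA was in 0 of 8, against 13.3% and 5.99%. The NRF1 consensus palindrome (10 letters) was in 0 of 8, against 1.33% and 2.74%, and the YY1 consensus (11 letters) in Suv39h2, against 0.972% and 2.12%, in the same order. Inside the DDX55 peak, the windows of Cbx5 and Hnrnpa1 held a single match to these motifs, a GC box 134 bases before the Hnrnpa1 start.

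A further motif, GCGCAGGCG, was searched after the sequences had been read, so its count is a description of what was noticed. It was present in Cbx5, Suv39h1, Suv39h2 and Ehmt1, which are 4 of 8 members, against 3.94% of all genes and 8.56% of those with a polymerase peak. Cbx5 had 2 copies, ending 54 and 8 bases before its start and outside the DDX55 peak, as the lower-case part of its line above shows. Ehmt1 carried it without a polymerase peak. The 250 bases before the other 3 starts are given below with this motif in capitals, all on the minus strand: chrX:8074761-8075010 for Suv39h1, chr2:3474987-3475236 for Suv39h2 and chr2:24919610-24919859 for Ehmt1. The motif ended 5, 117 and 139 bases before the start in that order.
Suv39h1: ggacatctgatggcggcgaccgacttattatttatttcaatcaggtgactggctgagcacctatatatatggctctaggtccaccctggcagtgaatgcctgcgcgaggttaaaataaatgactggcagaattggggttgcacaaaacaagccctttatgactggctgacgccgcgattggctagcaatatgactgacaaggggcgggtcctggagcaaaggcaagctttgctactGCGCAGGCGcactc
Suv39h2: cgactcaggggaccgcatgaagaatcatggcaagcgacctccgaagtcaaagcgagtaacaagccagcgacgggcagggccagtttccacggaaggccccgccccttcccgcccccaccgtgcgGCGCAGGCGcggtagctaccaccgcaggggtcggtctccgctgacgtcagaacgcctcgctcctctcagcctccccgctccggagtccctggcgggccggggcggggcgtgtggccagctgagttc
Ehmt1: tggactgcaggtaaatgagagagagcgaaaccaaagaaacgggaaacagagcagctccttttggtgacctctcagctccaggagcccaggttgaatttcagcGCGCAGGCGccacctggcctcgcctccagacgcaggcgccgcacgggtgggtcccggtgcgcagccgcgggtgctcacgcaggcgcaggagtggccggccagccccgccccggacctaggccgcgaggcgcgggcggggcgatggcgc

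No peak of H3K9me3, the mark that this system writes and reads, touched any of the 8 spans or promoter windows. The shares over all genes were 5.40% for spans and 0.457% (80 genes) for windows, so a count of 0 among 8 genes says little about the members. Within 10 kb, 1 of 8 members had such a peak, against 9.28% of protein-coding genes (2031), which is near the background. This was a 640 bp peak at chr6:51488025-51488664, 4321 bp past the end of Cbx3 and at percentile 52.8 of its list, where no annotated gene overlapped it. The next nearest were a 2115 bp peak 29038 bp from Setdb2, a 633 bp peak 56655 bp from Ehmt1 and a 1760 bp peak 72394 bp from Ehmt2. For the other 4 members the nearest lay between 307323 bp (Suv39h1) and 900615 bp (Cbx1) away.

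R-loop peaks were not found near any member. The count was 0 of 8 within 10 kb, where 2.28% of protein-coding genes (499) had one, and 0 of 8 over promoter windows, where 0.172% (30) did. As for H3K9me3, these counts of 0 lie close to the background. The nearest R-loop peak lay 289319 bp from Cbx5 and the next nearest 382740 bp from Suv39h2, while that of Ehmt2 was 2962817 bp away. At Suv39h2 that R-loop peak, chr2:3072579-3073075, lay whole inside the nearest H3K9me3 peak, chr2:3072474-3073198.

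**Figure D4:**
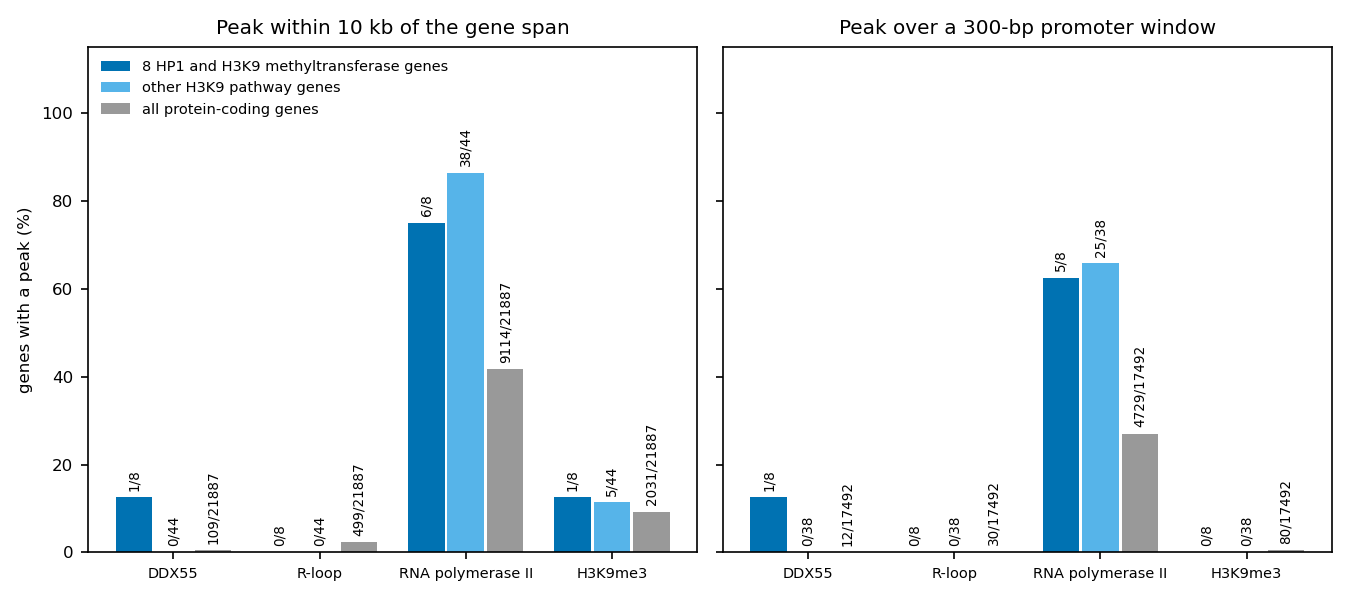
Share of genes in percent (y axis, from 0) with a peak of each list within 10 kb of the span (left) or over a promoter window (right), for the 8 genes, the other H3K9 pathway genes and all protein-coding genes. Numbers over the bars give genes with a peak out of genes counted, such as 6/8 and 9114/21887 for RNA polymerase II.

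Another 44 genes of the H3K9 methylation pathway were counted in the same way. RNA polymerase II peaks lay within 10 kb of 38 of 44 (86.4%), where the share over all genes was 41.6%. H3K9me3 peaks lay near 5 of 44 (11.4%), where it was 9.28%, and DDX55 and R-loop peaks near 0. Over promoter windows, polymerase peaks were at 25 of 38 genes (65.8%), at 5 of 8 members (62.5%) and at 27.0% of all genes. No difference between these shares was tested. All 11 demethylase genes and all 11 genes of HP1 partners and readers had a polymerase peak within 10 kb, though at Kdm4d, Phf2, Adnp and Chaf1a no such peak touched the gene.

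By role, the widest polymerase peaks lay at Kdm4c, an H3K9 demethylase (1591 bp), Tasor2, a paralogue of the HUSH subunit TASOR (1536 bp), Smchd1, a chromatin protein of the inactive X chromosome (1411 bp), and Dnmt1, the maintenance DNA methyltransferase (1262 bp). Among the 4 further writer genes Prdm2 had a polymerase peak of 629 bp inside the gene, and Setdb1, Mecom and Prdm16 had none. The other genes with none were Atf7ip2, Pphln1 and Dnmt3b. Setdb1, which encodes the writer that works with TRIM28, thus lacked a polymerase peak within 10 kb, as did Ehmt1 and Cbx1. Most protein-coding genes also lacked one, since 41.6% had a peak that close.

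The H3K9me3 peaks near pathway genes lay mostly beside them, as at Cbx3. Lrif1, which encodes an HP1-binding protein of the inactive X chromosome, had 2, of which 1 touched its span and a 585 bp peak lay 656 bp beyond it. Tasor2 had a 1391 bp peak 2888 bp away, and Morc2a, a HUSH-associated ATPase gene, a 678 bp peak 3533 bp away. Mbd1, which encodes a methyl-CpG binding protein, had a 2138 bp peak 7366 bp away and Atf7ip2 a 767 bp peak 9322 bp away. Over a promoter window H3K9me3 was at 0 of the 38 genes with such a window.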

How the data were processed

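The authors deposited 1 merged list of CUT&Tag peaks per target. The deposited values are of another unit than a count: genomic positions, with no score. Per the submitters' processing notes MACS3 3.0.0b1, ChIPseeker 1.30.3, Bowtie2 2.5.0, fastp 0.12.4 and SAMtools 1.15.1 were used with build mm10. Peak thresholds and the way of merging are not given in the sources used here. Samples were grouped by their titles.

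Overlaps of at least 1 bp were found in Python 3.11.15 (pandas 2.3.3, numpy 2.4.6), checked with bedtools 2.31.1 and tested on simulated peaks. Gene spans came from RefSeq (GRCm38.p6) on chromosomes 1 to 19, X and Y. Starts and promoter sequences came from the same source, but only for 17492 of 21887 protein-coding genes and for none on chromosome 18. A width percentile is the share of a list that is as narrow or narrower.

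No test was made, since the lists hold no value per sample. The text names the 8 genes, neighbours whose span or start a peak meets, and of the pathway genes those with H3K9me3, those without polymerase and the widest per role. Members and gene lists were chosen with earlier results of these data known. Protein sequences were not used here, though a comparison of them was planned. Some marker genes are not reported here by name.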

Additional observations from a re-analysis of the deposited data

How the results depend on the processing

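No paired analysis was possible because the lists hold no columns per sample, so no replicate could be blocked or left out. Other windows, midpoints in place of any overlap and the wider 50% of each list were tried. So were lists without peaks that met both RNA polymerase II and H3K9me3. Of the recomputed values, 60 stayed within 1.5-fold of those reported while 25 moved further. Counts of 0 that stayed 0 were among the 60. Peaks and members were counted apart even where both rest on 1 peak, so the 60 and 25 are not independent results. With the gene span alone, the DDX55 and H3K9me3 counts at the members were 0, RNA polymerase II peaks numbered 5, H3K9me3 reached 1 pathway gene, and the genome-wide shares were 0.324% (DDX55) and 5.40% (H3K9me3). With 3 kb, H3K9me3 was at 0 members and 2 pathway genes. With 50 kb there were 23 RNA polymerase II and 2 H3K9me3 peaks, the latter at 2 members, 8 pathway genes had H3K9me3 and 1 an R-loop peak, and the shares were 0.982% (DDX55), 4.62% (R-loop) and 19.2% (H3K9me3). With the wider 50% of peaks the DDX55 count was 0 because the Cbx5 peak is narrow, RNA polymerase II peaks lay near 21 pathway genes, and the shares were 0.251% (DDX55), 0.905% (R-loop) and 6.09% (H3K9me3). The DDX55 peak at Cbx5 shared 288 bp with RNA polymerase II under both overlap rules, which was fixed in advance because it lies whole inside the polymerase peak. Depth is unknown, so an absent peak is not an absent signal.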

Other observations

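Besides the peak at Cbx5 and Hnrnpa1, 6 DDX55 peaks lay over a promoter window with RNA polymerase II and with neither H3K9me3 nor R-loop. They were at Creb1 (475 bp), a cAMP-responsive transcription factor gene, Plk2 (343 bp), a polo-like kinase gene, Pole4 (299 bp), a DNA polymerase epsilon subunit gene, Clcn3 (542 bp), a chloride transporter gene, Ddx60 (470 bp), an antiviral helicase gene, and the gene model Gm40369 (463 bp). The peak at Cbx5, with 288 bp, was the narrowest of the 7.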
